A study of Mus musculus with 23 samples.

Results

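Arachidonic acid (AA), a polyunsaturated fatty acid of membrane lipids, changed gene expression in KO T cells in ways it did not in WT T cells, and that difference of effects is the subject here. For each gene, the AA effect in KO (KO with AA against KO without fatty acid) minus the AA effect in WT was taken as the interaction, on the log2 scale. A value above 0 means that AA raised the gene more, or lowered it less, in KO. Leading genes were ranked among called genes (edgeR adjusted p under 0.05) with a mean log2 CPM of at least 1. Predicted genes and receptor segments were left out, and genes at lower levels reached further in both directions. Among the leading genes, the antioxidant genes Srxn1, Hmox1 and Nqo1 and the urokinase receptor gene Plaur stood at the upper end. The desaturase gene Scd1, the spermidine synthase gene Srm and the glycolysis gene Hk2 stood at the lower end.

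Polyadenylated RNA of CD8+ T cells from mouse spleen was sequenced in 6 groups. KO cells came from Lckcre-PLPP1fl/fl mice, in which a Cre recombinase under the T cell promoter of Lck can delete the loxP-flanked gene, and WT cells from PLPP1fl/fl mice, so both genotypes carry the flanked allele. The interaction uses 16 of the 23 libraries, with 4 each of KO with AA, untreated KO, WT with AA and untreated WT. KO (3 libraries) and WT (4 libraries) with octadecenoic acid (OA), a monounsaturated fatty acid, served for a comparison with another fatty acid. Age, sex, dose and treatment time are not in the labels, nor is whether each library is its own animal or culture. The p-values therefore cover the variation among these libraries, which may be technical.

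PLPP1 is a membrane phosphatase that removes phosphate from bioactive lipids. Cells take up AA and build it into phospholipids, where its several double bonds are easily oxidised, and oxidised membrane lipids drive ferroptosis, an iron-dependent form of cell death named in the study's title. T cells meet such stress with the transcription factor NRF2, which switches on genes for glutathione and thioredoxin recycling. They also adjust lipid synthesis through SREBP and LXR, factors that sense sterols and fatty acids.

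Total counts ran from 39265131 to 58878203 per library, and 18015 of 49492 genes were tested, holding 99.964% of all counts. Cd8a, Cd8b1 and Cd3e were abundant in every group (302 to 539 CPM for the CD8 genes as group means), and all 3 had interactions below 0, of -0.14, -0.27 and -0.20, of which 1 stayed called without libraries 1 and 4 of KO with AA. The summed level of 11 T cell markers was 3429 to 3674 CPM in KO with AA, 3610 to 3711 in KO, 3633 to 3676 in WT with AA and 3576 to 3817 in WT. The 10 B cell markers summed to 305 to 319.5 CPM in KO with AA, 313 to 319 in KO, 295.5 to 302 in WT with AA and 302 to 322 in WT. Nearly all of this was Ighm, the immunoglobulin heavy chain gene, at group means of 289.6 to 309 CPM (interaction 0.04, edgeR adjusted p = 0.658), with Cd79a, Cd79b and Ighd at 1.49 to 2.83 CPM and Ms4a1 and Pax5 under 0.1 CPM. Among low markers of other cells the interaction was called for Cd68 of macrophages (0.54), Itgax (-1.46) and Cd74 (0.39) of dendritic cells, Itga2b of platelets (0.44) and Ikzf4 of regulatory T cells (0.38). The Ikzf4 call was lost in 13 of 27 alternative settings, and in 11 only 1 of 2 platelet markers was called. Itgax averaged only 0.34 CPM in KO with AA and 1.15 CPM in KO. The 10 macrophage markers summed to 10.5 to 12.8 CPM in KO with AA, 11.9 to 13.5 in KO, 11.8 to 13.6 in WT with AA and 12.3 to 16.1 in WT. The 9 dendritic cell markers summed to 18.8 to 21 CPM in KO with AA, 21.7 to 25.6 in KO, 28.1 to 30.4 in WT with AA and 30.5 to 35 in WT. Of 8 neutrophil markers, 4 were at 0 in all libraries. The 7 NK cell markers summed to 27.3 to 30.2 CPM in KO with AA and 40.7 to 43.6 in KO. In WT they summed to 25.55 to 28.9 CPM with AA and 23.7 to 27.7 without it. Most of this was Eomes, named again below among effector genes, at group means of 19.1 to 39.65 CPM (interaction -0.57). The part of these cells in the results was not tested. The 6 platelet markers summed to 98.4 to 101 CPM in KO with AA, 76.9 to 83.6 in KO, 132 to 137 in WT with AA and 127 to 136 in WT, most of it from Itgb3, an integrin chain that T cells can also make, whose interaction was 0.29. In bulk RNA, fewer cells of a type and less RNA per cell cannot be told apart. Trbv12-1 made up 3.27% to 4.32% of T cell receptor beta variable counts in the 11 KO libraries and 81.6% to 86.0% in the 12 WT libraries. Xist lay at 2.98 to 5.35 CPM in KO and 784 to 884 CPM in WT. The labelled deletion of Plpp1 and these differences between the cell populations cannot be told apart in any interaction below. Plpp1 itself had 15 to 37 counts per library in KO and 17 to 39 in WT, with means of 0.561 and 0.593 CPM. Its level was thus low in both genotypes and showed no loss in KO, so it does not check the labels. Plpp1 also overlaps Skiv2l2 by 102 bases on the other strand, at means of 26.3 and 10591 counts per library. Some or all of the reads counted for Plpp1 may therefore belong to Skiv2l2. The interaction of Plpp1 was 0.21 (edgeR adjusted p = 0.826). Libraries 1 and 4 of KO with AA differed more from each other than any other replicate pair of the 4 groups (chi-square per degree of freedom 15.4, against 3.41 to 13.8). Libraries 1 and 2 (13.8) and 2 and 4 (13.1) of the same group came next, so the spread was not confined to libraries 1 and 4.

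The effect of AA differed between KO and WT for many genes, both above and below 0. In the edgeR quasi-likelihood fit, at a Benjamini-Hochberg adjusted p under 0.05, 2513 genes were called, which is 13.9% of those tested. Of these, 1075 were above 0 (5.97% of tested genes) and 1438 below 0 (7.98%), the shares beside which every list count below stands. The split was 1348 and 1200 with counts halved, 1237 and 1098 without replicate 1 of KO with AA, and 1212 and 1081 without WT replicate 4, and 1959 genes were called without libraries 1 and 4 of KO with AA. Most differences were modest. The median called interaction was 1.22-fold in size, 301 genes differed at least 1.5-fold and 89 at least 2-fold. The median over all tested genes was -0.01.

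The called interactions came mainly from the KO side. The AA effect was called in KO but not in WT for 2337 of the 2513 genes, and 2415 had the larger absolute effect in KO. AA effects were called in both genotypes and larger in KO for 38 genes, opposite for 2 and called in WT alone for 7, and neither single effect was called for 129. For comparison, 27.6% of tested genes were called for AA in KO and 0.416% (75 genes) in WT. Among those 75, 58 moved further in the same direction in KO, and the interaction of 47 was called. The plot of both single effects shows this as a cloud that is tall and narrow. On the plain CPM scale, the difference of the differences had the same sign as the log2 interaction for 2511 of the called genes.

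**Figure D1:**
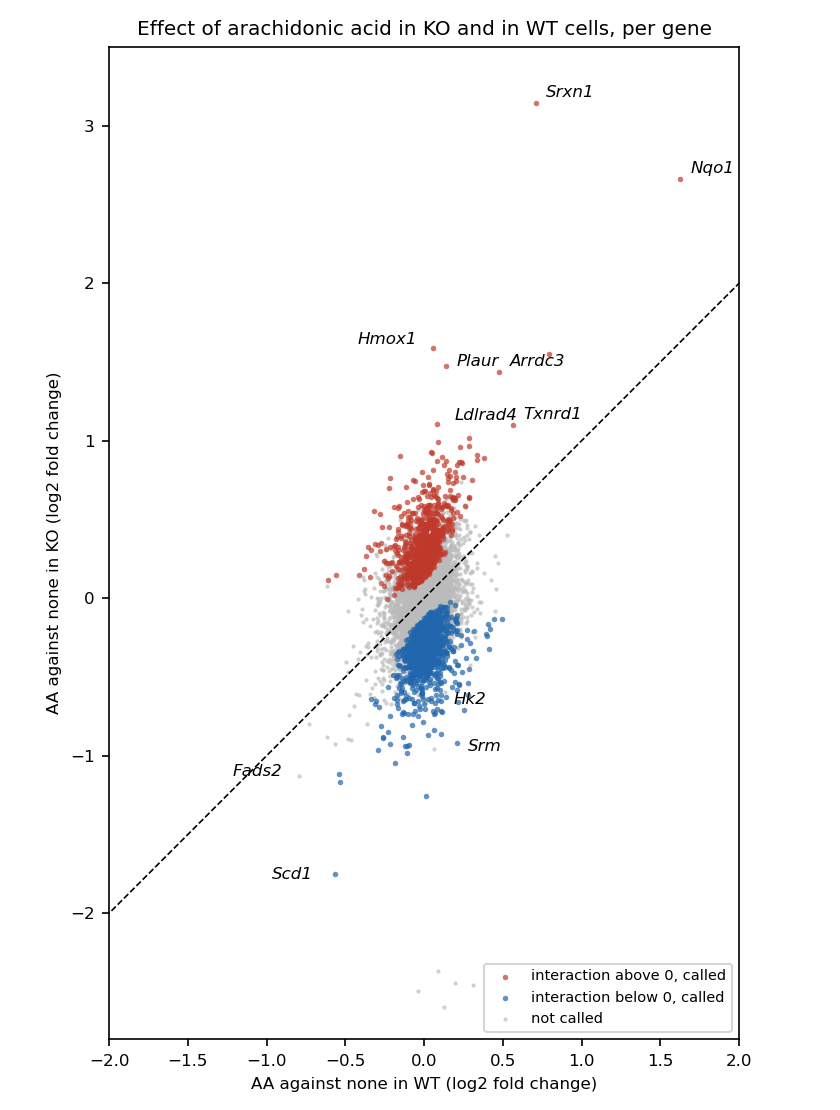
Effect of AA in KO (vertical axis) against its effect in WT (horizontal axis), both as log2 fold change against no fatty acid, for the 11886 tested genes with a mean log2 CPM of at least 1, drawn at equal scale. Red and blue points are called interactions above and below 0, grey points are not called, and the dashed line marks equal effects. Srxn1 and Nqo1 lie far above the line and Scd1 below it, while the cloud stretches along the KO axis.

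NRF2 targets were raised by AA more in KO than in WT. Of 30 listed genes, 28 were tested, and the interaction was above 0 for 13 and below 0 for 1, with a median of 0.29 against -0.01 over all genes. Srxn1, the sulfiredoxin that repairs over-oxidised peroxiredoxins (chromosome 2, 152105516 to 152111376, GRCm38), had the highest interaction of the leading genes, at 2.44 (95% confidence interval 1.88 to 3.0, edgeR adjusted p = 8.57e-08). Its levels were 5.32, 6.83, 5.86 and 6.5 CPM in KO with AA and 0.629, 0.956, 0.476 and 0.715 CPM in KO. The WT levels with AA were 1.42, 1.43, 1.10 and 1.45 CPM, and in WT 0.966, 0.641, 0.684 and 1.04 CPM. No library of KO with AA came near the other 3 groups. Both AA groups lay apart from their untreated cells, in WT narrowly (1.10 against 1.04 CPM), where the AA effect was not called (edgeR adjusted p = 0.140). AA thus multiplied Srxn1 5.42 times more in KO than in WT. These levels rest on 22 to 40 counts per library in untreated KO and 261 to 409 in KO with AA.

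Hmox1 encodes haem oxygenase, which breaks down haem and frees its iron (chromosome 8, 75093621 to 75100589). It had 8.76, 9.14, 9.46 and 7.86 CPM in KO with AA, against 3.22, 2.96, 2.99 and 2.53 CPM in KO. WT cells had 3.27, 3.16, 3.17 and 2.86 CPM with AA, against 3.08, 2.35, 3.13 and 3.5 CPM in WT. The 3 other groups overlapped one another, and KO with AA stood alone above them. The interaction was 1.53 (1.15 to 1.92, edgeR adjusted p = 3.77e-07), and the gap between KO and WT was 1.5 with AA and -0.03 without it.

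Nqo1, a quinone reductase (chromosome 8, 107388225 to 107403206), responded in both genotypes. Its levels were 12.9, 15.2, 14.3 and 12.9 CPM in KO with AA and 2.31, 2.05, 2.30 and 2.09 CPM in KO. They were 3.42, 2.92, 3.60 and 2.18 CPM in WT with AA and 0.782, 1.03, 1.15 and 0.931 CPM in WT. AA libraries lay above untreated ones in either genotype, and KO lay above WT at both states. The interaction of 1.04 (0.63 to 1.44, edgeR adjusted p = 3.15e-04) was the excess of the KO response over the WT response.

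More abundant NRF2 targets had smaller interactions with narrower error. Txnrd1, the cytosolic thioredoxin reductase, averaged 271 ± 5.79 CPM in KO with AA and 127 ± 4.23 CPM in KO, against 121 ± 3.54 CPM in WT with AA and 82.0 ± 2.73 CPM in WT (SD, n = 4 each). Its interaction was 0.53 (0.44 to 0.63, edgeR adjusted p = 3.09e-10). Gclc, the enzyme that starts glutathione synthesis, had 0.51, the ferritin light chain Ftl1 0.62 and the ferritin heavy chain Fth1 0.33. Sqstm1, the autophagy receptor p62 that also feeds back on NRF2, had 0.61, and Mafg, the small Maf partner that binds DNA with NRF2, had 0.68. Gsr (0.45), Abcc1 (0.32), Slc48a1 (0.25) and Slc7a11 complete the 13. Tkt of the pentose phosphate pathway was the 1 below 0 (-0.19), a call lost without replicate 1 of KO with AA (edgeR adjusted p = 0.0749), without WT with AA replicate 3 (0.0616) or 4 (0.0666), and without libraries 1 and 4 of KO with AA (0.161). Other textbook targets were not called, such as Gclm (0.21, edgeR adjusted p = 0.156) and Osgin1 (1.02, 0.0610), the second at 1.13 CPM in KO with AA and 0.438 CPM in KO. Nfe2l2, the gene of NRF2, had an interaction of 0.31 (4.83e-04), and Keap1, its inhibitor, 0.09 (0.288). Ftl1 overlaps Gm10252 and Gm22133, and its reads cannot be told from theirs.

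The promoters of 3 of the genes called above 0 are shown because they hold the letters of an antioxidant response element, the DNA motif that NRF2 and Maf proteins bind. Capitals mark TGACNNNGC or TGAGNNNGC on either strand in the RefSeq promoter of GRCm38.p6, from 250 bases before to 50 after the start.
Srxn1, chr2:152105274-152105573, plus strand: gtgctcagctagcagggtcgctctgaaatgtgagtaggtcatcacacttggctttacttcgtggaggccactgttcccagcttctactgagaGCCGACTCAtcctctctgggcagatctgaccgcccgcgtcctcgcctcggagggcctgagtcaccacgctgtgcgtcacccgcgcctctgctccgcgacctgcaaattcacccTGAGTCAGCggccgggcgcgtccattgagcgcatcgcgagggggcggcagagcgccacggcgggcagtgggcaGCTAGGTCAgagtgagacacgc
Txnrd1, chr10:82858956-82859255, plus strand: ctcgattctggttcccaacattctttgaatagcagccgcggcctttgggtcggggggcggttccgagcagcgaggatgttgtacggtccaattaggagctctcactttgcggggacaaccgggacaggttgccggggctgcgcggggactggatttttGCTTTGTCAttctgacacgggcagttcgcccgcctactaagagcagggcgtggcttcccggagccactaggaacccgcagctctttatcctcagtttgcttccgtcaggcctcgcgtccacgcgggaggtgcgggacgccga
Mafg, chr11:120633498-120633797, minus strand: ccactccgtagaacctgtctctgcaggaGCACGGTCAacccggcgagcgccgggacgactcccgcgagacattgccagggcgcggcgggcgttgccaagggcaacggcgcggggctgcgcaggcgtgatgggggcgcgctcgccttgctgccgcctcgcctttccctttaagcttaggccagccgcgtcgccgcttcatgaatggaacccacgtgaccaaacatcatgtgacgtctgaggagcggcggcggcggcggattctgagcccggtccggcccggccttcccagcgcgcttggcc
Srxn1 held 3 matches, which begin 158 and 45 bases before the start and at position 29 after it, while the single match begins 92 bases before it in Txnrd1 and 222 in Mafg. The second form of the motif was added after the first had been searched. Over all 32851 promoters, 27.8% hold either form, so such a match is common. Among NRF2 targets with a promoter in the table, 4 of 8 genes called above 0 held one, and 14 of 22 tested genes did.

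**Figure D2:**
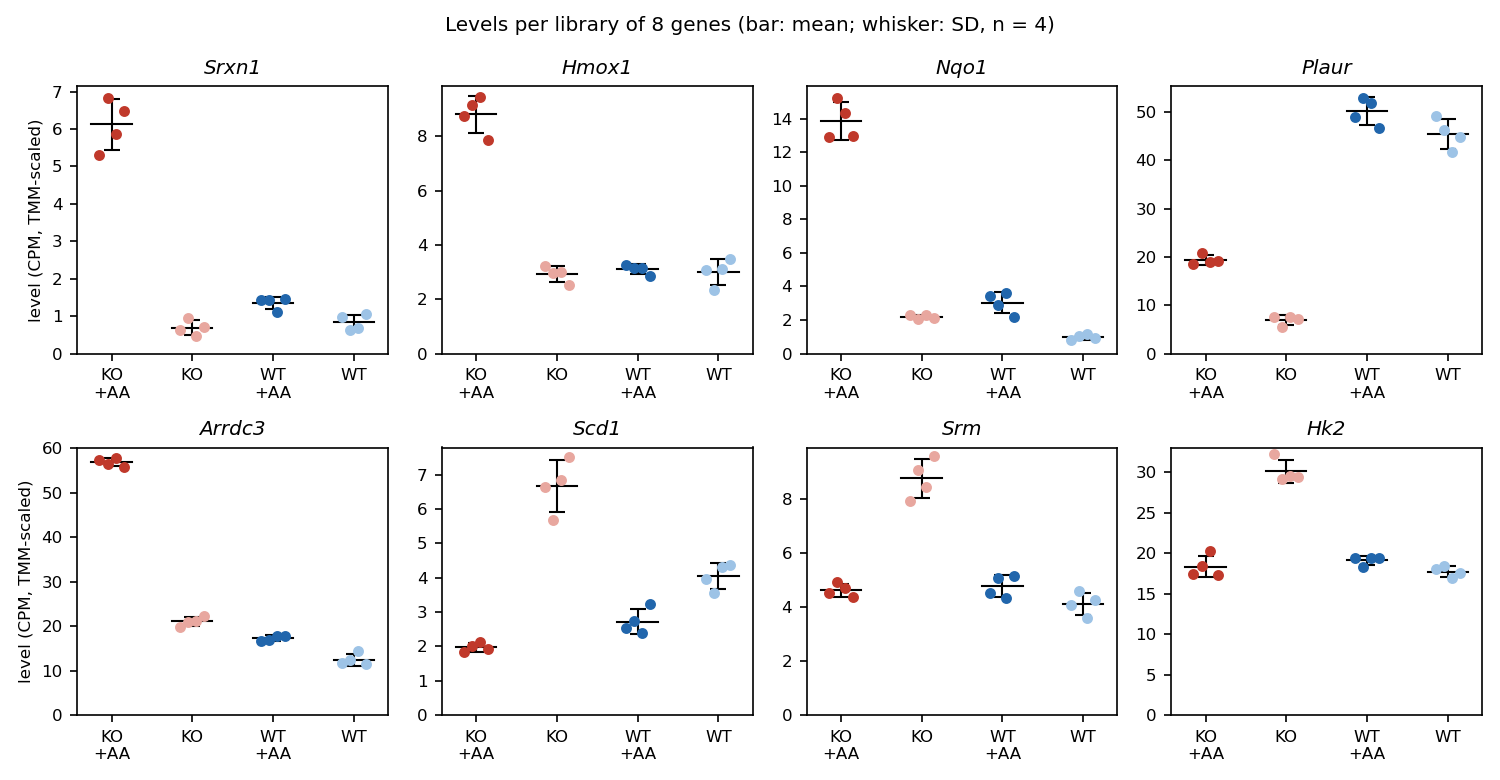
Level in CPM (TMM-scaled) of 8 genes in each library of KO with AA, KO, WT with AA and WT. Points are libraries, bars the mean and whiskers the SD (n = 4). KO with AA stands above all other groups for Srxn1, Hmox1, Nqo1 and Arrdc3, and untreated KO stands above all others for Scd1, Srm and Hk2, while Plaur is lower in both KO groups than in both WT groups.

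Of 24 tested genes that defend against ferroptosis, 7 had an interaction above 0 and 2 below 0, the second close to the 7.98% of all tested genes. The median was 0.06, and 6 of the 7 are also NRF2 targets. Slc7a11, the cystine importer that supplies glutathione synthesis (chromosome 3, 49892526 to 50443614), had 1.08, 0.969, 0.863 and 1.5 CPM in KO with AA and 0.681, 0.0956, 0.346 and 0.306 CPM in KO. In WT with AA it had 0.516, 0.734, 0.735 and 0.564 CPM, and in WT 0.506, 0.499, 0.538 and 0.954 CPM. KO with AA did not overlap KO, whereas both WT groups overlapped. The interaction was 1.6 (0.66 to 2.53, edgeR adjusted p = 0.0159), on 4 to 70 counts per KO library. It was not called without WT replicate 4 (0.0571) or without libraries 1 and 4 of KO with AA (0.0939). Slc3a2, the heavy chain that carries Slc7a11 to the membrane, averaged 210.3 ± 9.09 CPM in KO with AA and 122 ± 3.51 CPM in KO, against 121 ± 1.63 CPM in WT with AA and 109.9 ± 5.82 CPM in WT (SD, n = 4 each). Its interaction was 0.64 (edgeR adjusted p = 5.57e-11). Below 0 were Scd1 and Dhodh (-0.43), and in 16 alternative settings 1 or neither of the 2 was called.

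Gpx4, the peroxidase that reduces lipid peroxides in membranes, was not called. It averaged 40.4 ± 1.84 CPM in KO with AA and 45.3 ± 3.27 CPM in KO, and 40.3 ± 0.569 CPM in WT with AA and 40.5 ± 1.72 CPM in WT (interaction -0.16, interval -0.29 to -0.02, edgeR adjusted p = 0.120). Aifm2, the FSP1 gene of the coenzyme Q route, had 0.05 (0.909).

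Genes that favour ferroptosis gave 1 interaction above 0 and 5 below 0 among 19 tested. Over all tested genes 5.97% were above 0 and 7.98% below 0, and the 1 above 0 was close to that share. Acsl4, which activates AA for entry into phospholipids, averaged 68.1 ± 2.70 CPM in KO with AA and 77.2 ± 3.57 CPM in KO, against 69.6 ± 1.28 CPM in WT with AA and 69.0 ± 2.33 CPM in WT (SD, n = 4 each). Its interaction of -0.19 (edgeR adjusted p = 0.00922) was lost without libraries 1 and 4 of KO with AA (0.0754). Tfrc, the transferrin receptor that imports iron, had 207, 192, 201 and 199 CPM in KO with AA and 263, 264, 262 and 271 CPM in KO. It had 146, 147, 141 and 144 CPM in WT with AA and 152, 147, 149.9 and 144 CPM in WT. KO libraries with AA all lay below those without it, and both WT groups overlapped (interaction -0.38, edgeR adjusted p = 7.75e-08). The mitochondrial channels Vdac2 (-0.27) and Vdac3 (-0.32) and the plasmalogen enzyme Far1 (-0.15) were also below 0. Sat1, a polyamine acetylase, was above 0 at 0.39. Lpcat3, Ptgs2 and Chac1 were not called (edgeR adjusted p = 0.805, 0.307 and 0.614). The list's median, -0.02, changed sign in 11 alternative settings. For iron handling, 3 of 17 were above 0 (Hmox1 and both ferritins) and 3 below 0 (Tfrc, Pcbp1 and Blvra).

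Plaur, the urokinase receptor, which directs proteolysis at the cell surface, showed a different pattern from the NRF2 targets (chromosome 7, 24462484 to 24475968). It had 18.5, 20.8, 18.9 and 19.2 CPM in KO with AA and 7.60, 5.49, 7.62 and 7.15 CPM in KO. In WT with AA it had 49.0, 53, 51.9 and 46.6 CPM, and in WT 49.2, 46.3, 41.8 and 44.8 CPM. Every KO library lay below every WT library, and AA separated the KO libraries while the WT groups overlapped. The interaction was 1.34 (1.14 to 1.53, edgeR adjusted p = 2.71e-12). The gap between KO and WT was -1.37 with AA and -2.71 without it.

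Arrdc3, an alpha-arrestin that helps remove receptors and nutrient transporters from the surface, responded in both genotypes (chromosome 13, 80883384 to 80896035). It had 57.4, 56.5, 57.9 and 55.8 CPM in KO with AA and 19.8, 20.9, 21.3 and 22.3 CPM in KO. WT cells had 16.7, 16.9, 17.9 and 17.7 CPM with AA, and untreated WT 11.7, 12.3, 14.3 and 11.4 CPM. AA and untreated libraries were apart in each genotype, and the KO step was the larger (interaction 0.96, edgeR adjusted p = 4.24e-11). Of the 5 alpha-arrestins tested, Txnip, a glucose-sensitive inhibitor of thioredoxin, was also above 0 (0.23, overlapping Gm15441), and the median was 0.27.

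Both Ldlrad4 and Pmepa1, which restrain TGF-beta signalling, were low in untreated KO. Ldlrad4 averaged 15.6 ± 0.576 CPM in KO with AA and 7.22 ± 0.958 CPM in KO, against 14.8 ± 0.974 CPM in WT with AA and 14 ± 1.40 CPM in WT (SD, n = 4 each). For Pmepa1 the means were 12.4 ± 0.280 and 6.52 ± 0.577 CPM in KO with and without AA, and 15.8 ± 0.274 and 15.4 ± 1.16 CPM in WT with and without it. The interactions were 1.02 and 0.89 (edgeR adjusted p = 6.14e-09 and 9.31e-09). Ninj1, a protein of membrane rupture in dying cells, had 0.93 (2.27e-04), with 4.08 ± 0.227 and 2.51 ± 0.189 CPM in KO with and without AA and 2.30 ± 0.309 and 2.69 ± 0.312 CPM in WT with and without it. The remaining leading genes above 0 were Lrrc8dos (1.05), Blcap (0.90), the SH2 adaptor Sh2d4b (0.87) and Casc1 (0.82), all under 5 CPM in each group. Lrrc8dos overlaps Lrrc8d on the other strand, a volume-regulated anion channel subunit with an interaction of 0.79, and their reads cannot be told apart here. The same holds for Casc1 and Lrmp, and the Casc1 call was lost without libraries 1 and 4 of KO with AA (0.0524). Vps37b, an ESCRT subunit of membrane sorting named after its values were seen for having the smallest p, averaged 376 ± 15.2 CPM in KO with AA and 227 ± 3.67 CPM in KO, against 369.9 ± 7.37 CPM in WT with AA and 362 ± 10.5 CPM in WT (interaction 0.69, edgeR adjusted p = 7.86e-13).

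Lipid synthesis genes were lowered by AA more in KO than in WT. Scd1, the desaturase that makes monounsaturated fatty acids (chromosome 19, 44394451 to 44407709), had 1.83, 2.00, 2.14 and 1.92 CPM in KO with AA and 6.66, 5.69, 6.84 and 7.51 CPM in KO. In WT with AA it had 2.54, 2.73, 2.39 and 3.22 CPM, and in WT 3.96, 3.56, 4.33 and 4.36 CPM. The 4 groups did not overlap. Untreated KO lay highest and KO with AA lowest, so the gap between KO and WT had opposite signs, at -0.46 with AA and 0.72 without it. The interaction of -1.19 (-1.52 to -0.85, edgeR adjusted p = 2.86e-06) was the lowest of the leading genes.

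Scd2, its relative, had 210.4, 199, 207 and 208 CPM in KO with AA and 398, 422, 389 and 403 CPM in KO. In WT with AA it had 306, 305, 306 and 307 CPM, and in WT 393, 358, 379.6 and 367 CPM. Untreated cells of both genotypes overlapped, and both AA groups lay below them, KO further than WT (interaction -0.68, edgeR adjusted p = 7.86e-13). Of 15 tested genes of fatty acid synthesis and desaturation, 6 were below 0 and none above 0, with a median of -0.26. The others called were Acaca (-0.44) and Fasn (-0.43), which build fatty acids, Srebf1 (-0.34), which drives them, and Acly (-0.16). Fads2, the desaturase on the path to AA, averaged 3.93 ± 0.277 CPM in KO with AA and 8.58 ± 0.445 CPM in KO, against 3.17 ± 0.230 CPM in WT with AA and 5.50 ± 0.568 CPM in WT (SD, n = 4 each). Its interaction of -0.34 was not called (edgeR adjusted p = 0.171), although it was on the plain CPM scale (0.00197).

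Of 25 genes of cholesterol synthesis and uptake, 10 were below 0 and none above 0, with a median of -0.19. Idi1, an isomerase of the sterol path, had 43.9, 43.8, 44.8 and 43.9 CPM in KO with AA and 71.1, 75.2, 75.0 and 74.5 CPM in KO. It had 25, 24.7, 24.6 and 23.4 CPM in WT with AA and 26.7, 28.4, 30.8 and 27.8 CPM in WT. All 4 groups were apart, and KO fell further than WT with AA (interaction -0.53, edgeR adjusted p = 2.24e-08). Sqle (-0.47), Hmgcs1 (-0.37), Cyp51 (-0.30) and Srebf2 (-0.17), the driver of the pathway, were among the 10. Insig1 and Msmo1, which AA lowered in WT too, had interactions of 0.01 and 0.01. The count was 5 without replicate 1 of KO with AA, and 6 without WT with AA replicate 1 or 3, without libraries 1 and 4 of KO with AA, or with only the 4 groups fitted.

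The promoter of Hmgcs1, which makes the precursor of sterols, is shown because among the cholesterol genes called below 0 it alone held a sterol regulatory element, TCACNCCAC on either strand (capitals), of 6 with a promoter in the table.
Hmgcs1, chr13:119690101-119690400, plus strand: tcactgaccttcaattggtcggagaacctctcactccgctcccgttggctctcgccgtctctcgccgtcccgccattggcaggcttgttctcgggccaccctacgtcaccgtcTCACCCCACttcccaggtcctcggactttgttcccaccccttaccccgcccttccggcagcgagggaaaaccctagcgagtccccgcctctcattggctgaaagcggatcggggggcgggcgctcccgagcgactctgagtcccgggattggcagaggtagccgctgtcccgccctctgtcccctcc
The match begins 137 bases before the start, and 1.24% of all promoters hold this motif.

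Of 12 LXR targets, 6 were below 0 and 1, Apoe (0.25), above 0, a call lost in 13 alternative settings. The sterol exporters Abcg1 (-0.60) and Abca1 (-0.42) and the GTPase gene Arl4c (-0.31) were among the 6, beside Scd1, Scd2 and Srebf1 that the list shares with fatty acid synthesis. Genes of fatty acid oxidation had 4 of 27 called above 0 and 1 called below 0, the uncoupling protein gene Ucp2 (-0.47). Over all tested genes 5.97% were above 0 and 7.98% below 0. Called or not, 10 of the 27 had a positive interaction and 17 a negative one, with a median of -0.03. Cpt1a, which admits fatty acids to mitochondria, had 109, 112, 111 and 109 CPM in KO with AA and 60.1, 59.1, 59.0 and 61.4 CPM in KO. It had 70.9, 68.1, 69.1 and 68.0 CPM in WT with AA and 53.6, 57.3, 53.2 and 54.3 CPM in WT. AA raised it in both genotypes without overlap, and more in KO (interaction 0.54, edgeR adjusted p = 8.42e-11). Plin2, the coat of lipid droplets, had 0.43 (0.0154), a call lost on the plain CPM scale (0.204). Etfdh (0.24) was also above 0.

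Genes of cell growth were lowered by AA in KO relative to WT. Srm, which makes the polyamine spermidine (chromosome 4, 148591503 to 148594993), had 4.50, 4.91, 4.71 and 4.36 CPM in KO with AA and 7.94, 9.05, 8.44 and 9.60 CPM in KO. In WT with AA it had 4.54, 5.08, 4.34 and 5.16 CPM, and in WT 4.07, 4.58, 3.59 and 4.25 CPM. Untreated KO stood alone above the other 3 groups, and with AA the KO libraries overlapped WT. The interaction was -1.13 (-1.42 to -0.84, edgeR adjusted p = 4.45e-07), with a gap between KO and WT of -0.05 with AA and 1.08 without it.

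Hk2, the hexokinase that commits glucose to glycolysis in dividing cells (chromosome 6, 82725025 to 82774454), had the same arrangement. It had 17.5, 18.4, 20.2 and 17.3 CPM in KO with AA and 32.3, 29.2, 29.5 and 29.4 CPM in KO. In WT with AA it had 19.4, 18.3, 19.4 and 19.4 CPM, and in WT 18.1, 18.4, 16.9 and 17.5 CPM. Only untreated KO lay apart from the other groups (interaction -0.82, -0.97 to -0.68, edgeR adjusted p = 2.17e-10). Of 27 genes of glycolysis and the hypoxia response, 13 were below 0 and 1, Bnip3l, above 0 (median -0.18). Tpi1 (-0.59, overlapping Spsb2 on the other strand), Eno1 (-0.44), Pfkl (-0.42), Pgam1 (-0.34), the glucose transporter Slc2a1 (-0.33), Ldha (-0.25) and Gapdh (-0.18) were called, while Pkm (-0.06) and Aldoa (-0.09) were not.

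Ribosome biogenesis and Myc genes had the lowest median of the 31 gene lists. Of 25 tested, 19 were below 0 and none above 0, with a median of -0.34. Nolc1, a nucleolar chaperone, averaged 256 ± 17.1 CPM in KO with AA and 387 ± 12 CPM in KO, against 240.4 ± 6.48 CPM in WT with AA and 251 ± 16.2 CPM in WT (interaction -0.53, edgeR adjusted p = 6.93e-08). Polr1b (-0.68), a subunit of RNA polymerase I, Dkc1 (-0.56), Nop58 (-0.44) and Nop56 (-0.42), which modify ribosomal RNA, and Myc (-0.41) were also below 0. The median gap between KO and WT over these genes was 0.15 with AA and 0.44 without it. Npm1 (0.00), Fbl (0.01) and Ncl (-0.04) were near 0. Snora75 (-0.84), a small nucleolar RNA among the leading genes, lies inside Ncl, and its 79 to 161 counts per KO library cannot be told from those of its host. Ribosomal protein genes had 5 of 40 above 0 and 2 below 0, against 5.97% and 7.98% of all tested genes. The counts ran from 2 to 11 and from 0 to 3 over the alternatives, the second outside 1.5 times in 21 of 27. With 1 library left out, the 5 became 2 without KO replicate 2, 3 without WT replicate 1, and 8 to 10 without replicate 1 of KO with AA, KO replicate 3, WT with AA replicate 2 or 3, or WT replicate 3 or 4.

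Cell division genes followed. Of 30 genes of DNA replication and S phase, 15 were below 0 and none above 0, with a median of -0.19, among them Dut (-0.38), Mcm2 (-0.32), Rrm2 (-0.29) and Pcna (-0.26). Of 25 mitosis genes, 16 were below 0 and none above 0, with a median of -0.18. Ube2c, which marks mitotic proteins for destruction, averaged 50.5 ± 3.48 CPM in KO with AA and 74.5 ± 2.87 CPM in KO, against 59.8 ± 1.23 CPM in WT with AA and 61.5 ± 1.83 CPM in WT (interaction -0.52, edgeR adjusted p = 3.04e-07). Plk1 (-0.35), Cdc20 (-0.28) and Aurka (-0.28) were called, and Mki67 (-0.14) and Top2a (-0.09) were not. Smaller shares of other growth lists were below 0. These were 9 of 20 cytosolic tRNA synthetases (5 without WT with AA replicate 1), 10 of 31 proteasome subunits (5 without WT replicate 4, and 6 without replicate 1 of KO with AA or WT with AA replicate 1 or 4) and 11 of 42 nuclear genes of oxidative phosphorylation. Each of these lists had 1 member above 0, with 0 to 2 tRNA synthetases and 0 to 3 oxidative phosphorylation genes over the alternatives, and none of 11 mitochondrial genome transcripts was called. The plot of 20 lists sets their members side by side.

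**Figure D3:**
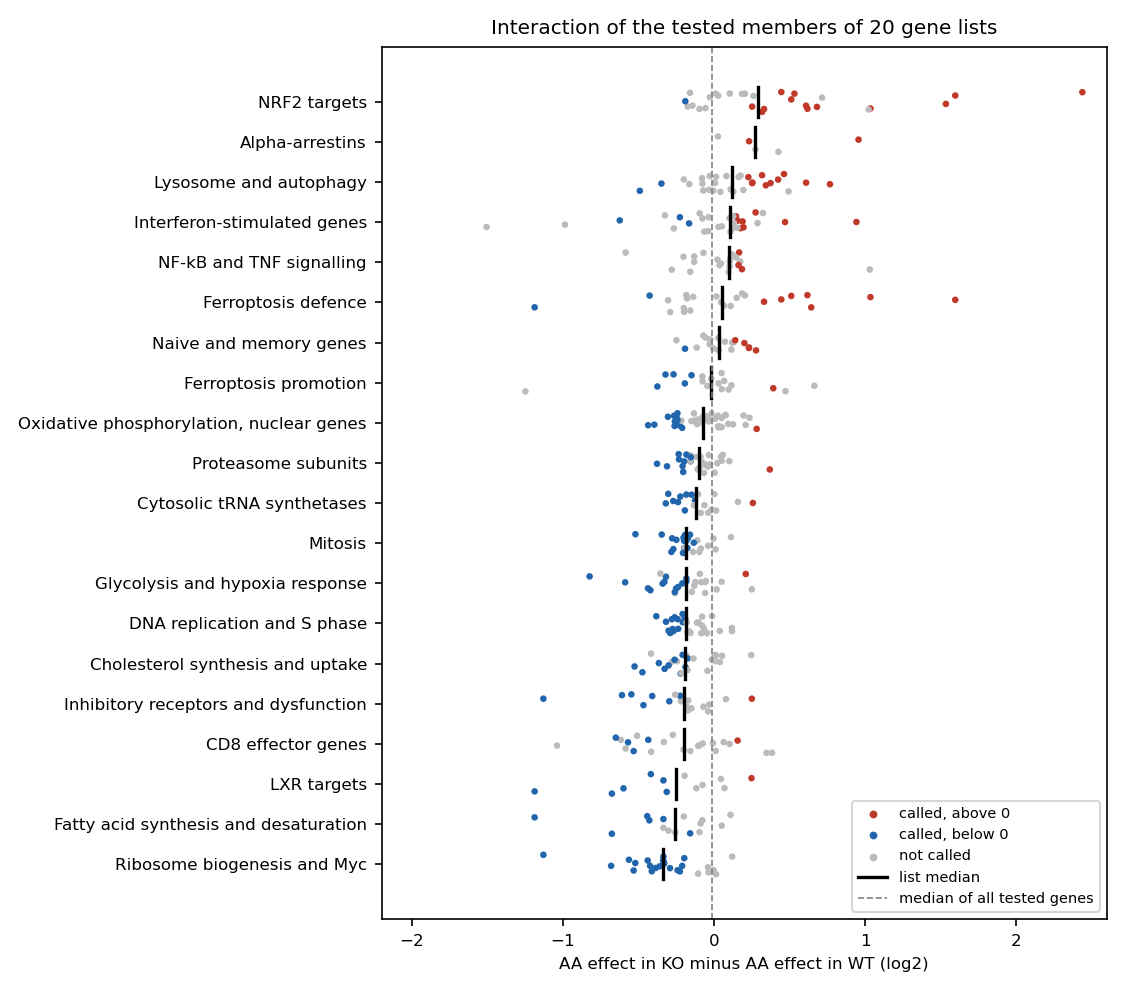
Interaction (AA effect in KO minus AA effect in WT, log2, horizontal axis) of every tested member of 20 gene lists, 1 row a list. Red and blue points are called above and below 0, grey points are not called, black bars are list medians and the dashed line is the median of all tested genes (-0.01). NRF2 targets reach 2.44 on the right, while ribosome biogenesis genes lie mostly left of the dashed line.

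Some genes of CD8 T cell function were lowered by AA in KO relative to WT. Gzmb, the granzyme B protease that kills target cells, had 326, 317, 315 and 302 CPM in KO with AA and 408, 417, 433 and 431 CPM in KO. It had 196, 198, 202 and 202 CPM in WT with AA and 204, 199.8, 194 and 195 CPM in WT. All KO libraries lay above all WT libraries, AA lowered KO without overlap, and the WT groups overlapped (interaction -0.44, edgeR adjusted p = 7.48e-09). Of 23 effector genes, 4 were below 0 and 1, the receptor gene Klrd1 (0.16), above 0, against 7.98% and 5.97% of all tested genes. The Klrd1 call was lost in 7 alternative settings, among them without replicate 3 of KO with AA, KO replicate 1 or 3, or WT replicate 1 or 2. Beside Gzmb the 4 were the transcription factors Tbx21 (-0.53) and Eomes (-0.57) and the chemokine gene Xcl1 (-0.65). Xcl1 overlaps Gm20743 on the other strand, which had an interaction of -1.27, and their reads cannot be told apart here. The Xcl1 call was lost in 6 settings, without KO replicate 3 (edgeR adjusted p = 0.0630), WT replicate 3 (0.0529) or 4 (0.0626), WT with AA replicate 1 (0.0726) or libraries 1 and 4 of KO with AA (0.0897), and with limma on the plain CPM scale (0.0644). Prf1, the pore protein perforin (-0.51, edgeR adjusted p = 0.0832, and 0.0375 without WT replicate 1), and Ifng, at 0.517 CPM in KO with AA and lower in the other groups (0.35, 0.847), were not called. Slamf7, an activating receptor (chromosome 1, 171632403 to 171653035), averaged 7.94 ± 0.987 CPM in KO with AA and 15.2 ± 0.945 CPM in KO, against 12.9 ± 0.443 CPM in WT with AA and 13.9 ± 1.31 CPM in WT. Its interaction was -0.83 (edgeR adjusted p = 3.89e-07), and it overlaps the low gene Gm37787 on the other strand.

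Pdcd1, which encodes the inhibitory receptor PD-1, had 11.8, 12.5, 11.8 and 9.94 CPM in KO with AA and 13.3, 13.0, 12.3 and 12.6 CPM in KO. It had 12.2, 11.9, 11.7 and 11.9 CPM in WT with AA and 10.2, 10.4, 11.3 and 11.3 CPM in WT. The small steps were opposite in direction, and only the WT ones were free of overlap (interaction -0.30, edgeR adjusted p = 0.0239). That call was lost in 7 alternative settings, with adjusted p up to 0.142. Of 18 inhibitory receptor and dysfunction genes, 7 were below 0 and 1, Ikzf2 (0.25), above 0, a call lost on the plain CPM scale (limma adjusted p = 0.569). The 7 included Cd160 (-0.61), Nr4a2 (-0.55), Nr4a1 (-0.47) and Entpd1 (-0.41), and were 4 without a filter on low counts or without WT with AA replicate 1. Tox (-0.26), Lag3 (-0.18) and Havcr2 (-0.22) were not called, although Tox was without KO replicate 2 (0.0398) or WT replicate 2 (0.0365). Egr3, an early transcription factor of receptor signalling, averaged 3.95 ± 0.102 CPM in KO with AA and 7.15 ± 0.577 CPM in KO, against 5.28 ± 0.247 CPM in WT with AA and 4.91 ± 0.220 CPM in WT (interaction -0.96, edgeR adjusted p = 5.54e-07). Dusp1 (-0.60) and Jund (-0.39) were also below 0 among 22 immediate early genes. Jund overlaps Gm11175 on the other strand, which had an interaction of -0.45, and their reads cannot be told apart here. Of the 22, 5 were below 0 and 2 above 0, against 7.98% and 5.97% of all tested genes. The 5 became 3 under a stricter filter on low levels. The 2 became 1 without KO replicate 3, WT replicate 1 or 2, or libraries 1 and 4 of KO with AA.

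Naive and memory genes had 5 of 20 above 0 and 1, Bcl2 (-0.19), below 0, against 5.97% and 7.98% of all tested genes. The 5 were Bach2 (0.28), Il7r (0.23), Actn1 (0.23), Myb (0.20) and Satb1 (0.14), while Tcf7 (0.03, edgeR adjusted p = 0.777) and Lef1 were not called. Interferon-stimulated genes had 8 of 30 above 0, among them 4 guanylate-binding protein genes, Oasl2 (0.94) and Ifit3 (0.47), and 3 below 0, led by Mx1 (-0.62), of which 1 was called in 17 alternative settings. The 3 were close to the 7.98% below 0 among all tested genes. The 8 became 5 without WT replicate 2 or without libraries 1 and 4 of KO with AA, and 3 on the plain CPM scale. NF-kB genes had 3 of 22 above 0, Rela, Nfkb2 and Tnfaip3, a count that ran from 0 to 6 over the alternatives, with 6 without replicate 1 of KO with AA and 1 without its replicate 3 or without KO replicate 4.

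Lysosome and autophagy genes had 10 of 30 above 0 and 2 below 0, with a median of 0.12. Beside Sqstm1, the autophagy kinase Ulk1 had 0.46 (25.8 ± 1.27 and 17.2 ± 0.563 CPM in KO with and without AA, and 20.3 ± 0.342 and 18.8 ± 1.26 CPM in WT with and without it, edgeR adjusted p = 2.53e-05). The autophagosome proteins Map1lc3a (0.77), Gabarapl1 (0.42) and Map1lc3b (0.23), the calcium channel Mcoln1 (0.37), the proteases Ctsl (0.34) and Ctss (0.32) and the cholesterol transporters Npc1 (0.25) and Npc2 (0.25) were the others. Gusb (-0.49) and Atg7 (-0.35) were below 0, a count close to the 7.98% of all tested genes.

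Genes that ATF4 drives when amino acids run short, the core of the integrated stress response, split in direction. Of 29 tested genes, 4 were above 0, namely the transporters Slc7a11, Slc1a4 (1.06) and Slc3a2 and the transcription factor Ddit3 (0.41), a count of 2 under a stricter filter on low levels. There were 7 below 0, among them Asns (-0.33), Psat1 (-0.38), Shmt2 (-0.36) and Atf5 (-0.45), which serve amino acid synthesis or the response itself. Atf4 (0.09) was not called. Ddit3 overlaps Gm4189 and Mars, the second of which had an interaction of -0.30. The promoter of Slc7a11 is shown because it held 2 amino acid response elements, TGATGNAA on either strand (capitals).
Slc7a11, chr3:50443564-50443863, minus strand: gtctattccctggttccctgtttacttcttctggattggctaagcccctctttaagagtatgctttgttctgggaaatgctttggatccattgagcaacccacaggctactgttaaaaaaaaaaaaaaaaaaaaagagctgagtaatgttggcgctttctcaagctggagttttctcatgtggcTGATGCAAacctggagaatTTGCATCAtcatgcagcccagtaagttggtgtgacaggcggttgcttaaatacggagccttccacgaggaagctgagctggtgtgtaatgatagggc
The matches begin 66 and 47 bases before the start and do not overlap. The same promoter also held TGAGNNNGC, beginning 97 bases before the start and left in lower case. Over all promoters 3.97% hold TGATGNAA, and 9 of 26 tested genes of this list did, 2 of the 4 called above 0 and 1 of the 6 called below 0 that have a promoter in the table.

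Other genes at the lower end have varied roles. Arl4d, a small GTPase, averaged 8.33 ± 0.590 CPM in KO with AA and 17.2 ± 0.705 CPM in KO, against 7.41 ± 0.453 CPM in WT with AA and 8.41 ± 0.638 CPM in WT (interaction -0.86, edgeR adjusted p = 1.30e-07). Adap1, which switches off Arf GTPases, averaged 7.85 ± 0.345 and 15.5 ± 1.44 CPM in KO with and without AA, and 8.03 ± 0.660 and 8.65 ± 0.394 CPM in WT with and without it (-0.88, 8.62e-08). Bspry (-0.96) and the germ cell gene Tex15 (-0.89) were likewise highest in untreated KO. Hic1, a transcriptional repressor, was instead lowest in KO with AA, at 6.16 ± 0.750 CPM against 11.8 ± 0.625 CPM in KO, 15.4 ± 0.311 CPM in WT with AA and 16.8 ± 0.614 CPM in WT (-0.82, 2.36e-07). Hcn3, a channel gene that overlaps Pklr, averaged 1.39 CPM in KO with AA and 1.94 to 2.27 CPM in the other groups (-0.87, 0.00933).

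The counts of the remaining lists stand beside 5.97% above 0 and 7.98% below 0 over all tested genes. Thioredoxin and peroxiredoxin genes had 3 of 20 above 0, p53 and apoptosis genes 3 of 24 above 0 and 4 below 0 (2 without replicate 1 of KO with AA or without WT replicate 4), heat shock chaperones 1 of 18 above 0 (1 to 3 over the alternatives) and 4 below 0, and endoplasmic reticulum chaperones 1 of 21 above 0 (0 to 2) and 4 below 0. Of 8 pentose phosphate genes, 1, Tkt, was below 0. That count was 0 where the Tkt call was lost, as given above, and 2 without replicate 2 of KO with AA, KO replicate 3 or WT replicate 1. Of 25 genes picked for their tie to PLPP1, ferroptosis and PD-1, 6 were above 0 and 6 below 0, and all 12 are described above.

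Whether the interaction is particular to AA was asked with the OA groups, by testing the AA interaction minus the OA interaction, in which the untreated groups cancel. It was called for 504 genes, 2.80% of those tested, with 196 above 0 (1.09%) and 308 below 0 (1.71%), and for 227 to 780 genes with 1 library left out. For NRF2 targets 11 of 28 were above 0 and none below 0, and their median interaction was 0.29 with AA and 0.03 with OA. Srxn1 (edgeR adjusted p = 0.0115), Hmox1 (2.69e-04), Txnrd1 (5.67e-05), Gclc (3.97e-04), Sqstm1 (1.46e-08) and both ferritins were among the 11, and Nqo1 (0.272) was not. The difference was also called for Slc3a2 (5.47e-07), Cpt1a (2.23e-07), Arrdc3 (3.11e-09), Txnip (1.84e-07) and Plaur (0.0139). Among lysosome and autophagy genes, 6 of 30 were above 0 and none below 0, and among NF-kB genes 5 of 22 and none, with 3 on the plain CPM scale. The OA interaction itself was called above 0 for Srxn1 (1.28), Txnrd1 (0.203), Sqstm1 (0.162), Plaur (0.937), Slc3a2 (0.175) and Cpt1a (0.136). For these genes it was thus smaller than with AA and not absent. It was not called for Hmox1 (0.322), Gclc (0.156), Ftl1 (0.118), Fth1 (0.102) or Arrdc3 (0.071).

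Part of the cell division genes also differed between the fatty acids. Of mitosis genes, 11 of 25 were below 0 and none above 0, with a median interaction of -0.18 with AA and 0.03 with OA. That count was 5 without replicate 2 of KO with AA or of WT with OA, 6 without replicate 2 or 3 of KO with OA, and 7 without replicate 4 of WT with AA or of WT with OA. Of S phase genes 5 of 30 were below 0, a count of 2 or 3 without replicate 1 or 2 of KO with AA, 2 or 3 of WT with AA, 2 or 3 of KO with OA, or 1, 2 or 4 of WT with OA. The AA interaction lay below the OA interaction for Hk2 (edgeR adjusted p = 7.16e-05), Hic1 (1.22e-07), Tfrc (2.56e-05), Tbx21 (2.69e-04) and Eomes (0.0173). Their OA interactions were -0.328, 0.116, -0.061, -0.101 and -0.255 in that order, so only that of Hic1 was above 0. The Eomes call was lost without replicate 2 of KO with AA or of KO with OA, replicate 3 or 4 of WT with AA or replicate 4 of WT with OA, and on the plain CPM scale.

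Other groups gave few or no calls of a difference, which does not show that both fatty acids act alike on them. Of 25 cholesterol genes none was called, with medians of -0.19 for AA and -0.28 for OA, although up to 2 were above 0 in the alternatives. Of 20 tRNA synthetases none was called, with -0.12 and -0.11. For ribosome biogenesis 2 of 25 were below 0, and 0 to 6 over the alternatives (medians -0.34 and -0.27), and for fatty acid synthesis 1 of 15, and 0 to 2 (-0.26 and -0.23). Scd1 (edgeR adjusted p = 0.120), Scd2 (0.895), Srm (0.535) and Gzmb (0.746) were not called. Of the 24 leading genes, 8 were called. The OA interaction was called for 12.5% of tested genes, 5.90% above 0 and 6.62% below 0, but it shares the untreated groups with the AA interaction, so the numbers of both are given side by side without a count of overlap.

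**Figure D4:**
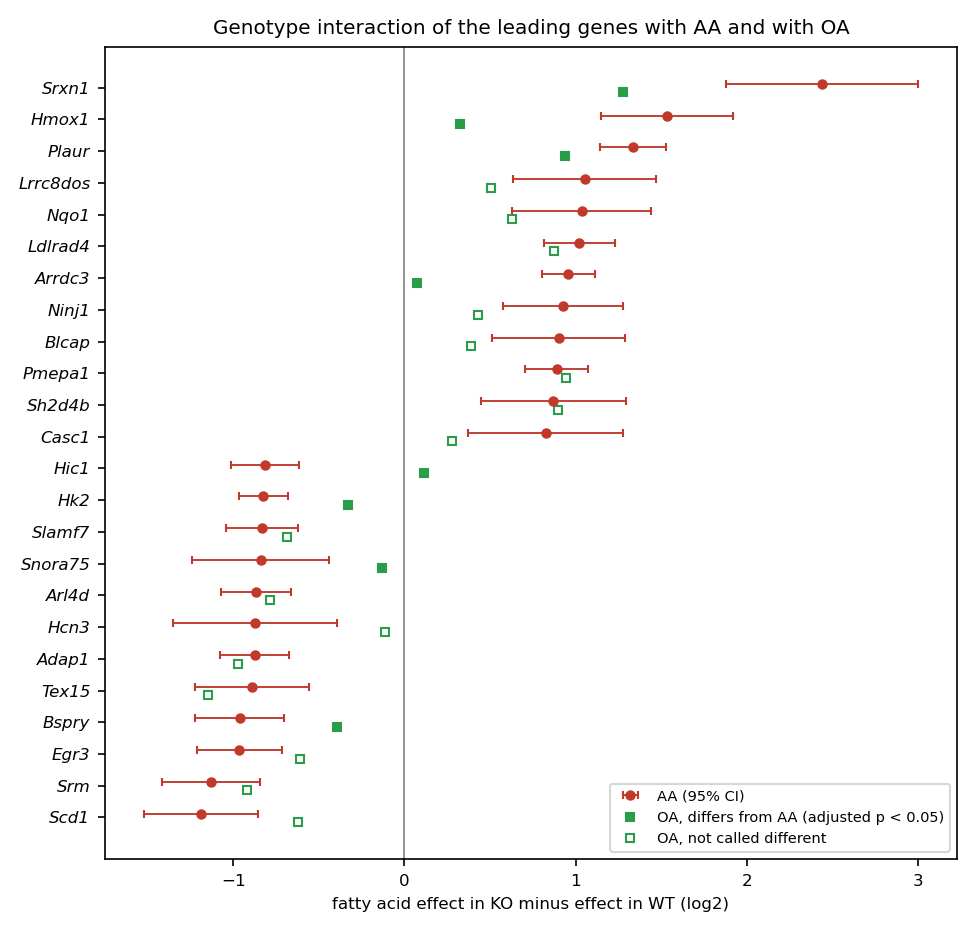
Interaction of the 24 leading genes, as fatty acid effect in KO minus its effect in WT (log2, horizontal axis). Red circles are AA with their 95% confidence interval, green squares are OA, filled where the AA and OA interactions differed (adjusted p under 0.05) and open where no difference was called. Arrdc3 and Hic1 have OA squares near 0 (0.07 and 0.12) and AA circles at 0.96 and -0.82, while the squares of Pmepa1 and Arl4d lie beside their circles.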

How the data were processed

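The deposited table holds raw counts per gene for 23 libraries of CD8+ T cells. Libraries were made from polyadenylated RNA with a stranded kit, per the labels' protocols. Trimmomatic 0.36 (a read trimmer), featureCounts of the Subread 1.5.1 package (a read counter) and the build GRCm38 are named, without order or settings, in the submitters' processing notes. No aligner, annotation release, strand or pairing setting is given in the sources used here, so genes that overlap may share reads. Even numbers made up 66.5% to 70.7% of counts from 1 to 19, so counts were also halved as an alternative. Columns were matched to samples by name. The exon coordinates and the other gene model values (lengths) of the deposited table gave gene positions and overlapping genes.

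edgeR 4.0.16 in R 4.3.3 kept 18015 genes (filterByExpr, minimum count 10, minimum total 15, 6 groups), scaled them by TMM and fitted a quasi-likelihood model with 6 group means to 23 libraries (17 residual and 17.9 prior degrees of freedom). The interaction is the contrast (KO_AA - KO) - (WT_AA - WT). All tested genes entered the Benjamini-Hochberg adjustment, and calls were made under 0.05 at any fold. Standard errors are the log2 value divided by the root of F, and 95% intervals follow from them. CPM values are TMM-scaled and are not divided by gene length, so they compare groups and not genes.

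Named genes are the 12 with the largest interaction in each direction among called genes with a mean log2 CPM of at least 1 (predicted genes and receptor segments left out), up to 4 called members with the smallest adjusted p from each of 31 lists, and 25 genes of the study's subject. Some members of the lists are counted but not reported here by name. Other list members are given by value, and Vps37b was chosen after its values were seen. The lists and members were chosen with earlier results of these data known, so no count over a list is independent support for it. The procedure was tested on simulated data. Alternatives were DESeq2 1.42.0, limma-voom 3.58.1 with quality weights, scaling by RLE or by the upper quartile, testing all genes, a stricter filter (1 CPM in 4 libraries and 10 CPM in 1), only the groups of the contrast, a replicate block, counts halved and rounded up, a limma test on CPM divided by the gene's mean (the plain or additive scale), and each library left out. Leaving out libraries 1 and 4 of KO with AA together was not planned and was added to these alternatives. Promoter sequences are from RefSeq (GRCm38.p6).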

Additional observations from a re-analysis of the deposited data

Results flagged for a closer look

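The AA effect differed between genotypes for 2513 genes, and the AA and OA interactions differed for 504, both by a test of the difference itself. Both are described above.

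Over 47 of the named genes, 188 groups of 4 libraries were examined for 1 library far from the other 3, a rule that chance alone meets in about 5% of groups, and 9 were found. Srxn1 was 1.10 CPM in WT with AA replicate 3, against 1.42 to 1.45 in the others. Hcn3 was 1.09 CPM in KO with AA replicate 3, against 1.47 to 1.52. Replicate 4 of KO with AA had 9.21 CPM of Arl4d, against 7.95 to 8.16, and 7.24 CPM of Tox, against 8.05 to 8.19. Snora75 was 2.54 CPM in WT replicate 4, against 2.76 to 2.79. Hk2 was 32.3 CPM in KO replicate 1, against 29.2 to 29.5, and 18.3 CPM in WT with AA replicate 2, against 19.4 in the others. Slc7a11 was 0.954 CPM in WT replicate 4, against 0.499 to 0.538, and its call was lost without that library. Fads2 was 6.35 CPM in WT replicate 1, against 5.13 to 5.27.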

How the results depend on the processing

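The number of called AA interactions stayed within 1.5 times of 2513 in every alternative run for it, from 1959 to 2614, and was 2602 with DESeq2. Leaving out 1 library gave 903 to 1336 genes above 0 and 1055 to 1421 below 0. The share above 0 was 42.8%, but 52.9% with counts halved (1348 above 0 and 1200 below), 52.7% with upper quartile factors (1296 and 1162), 52.0% with only the groups of the contrast (1194 and 1101) and 53% without replicate 1 of KO with AA (1237 and 1098), and as large without WT replicate 4 (1212 and 1081). On the plain CPM scale 773 were above 0 and 1342 below, and 2 of the 2513 changed sign. No setting moved the median of all genes by more than 0.1. Of 124 named genes that were called, 104 kept their call in every alternative in which they were tested, 25 to 27 for each gene, and none changed sign. The AA minus OA counts were less stable. A stricter filter gave 303 above 0, the plain scale 173 below 0, and leaving out 1 library 102 to 248 above 0 and 125 to 532 below 0, with totals of 227 and 291 without replicate 2 and 3 of KO with OA, 260 and 336 without replicate 2 and 4 of WT with OA, 308 without WT with AA replicate 2, and 285 and 780 without replicate 2 and 4 of KO with AA. Replicate numbers did not pair the libraries. Deviations of same-numbered libraries correlated at -0.22 to 0.14 over 24 pairs, 3 of them over 0.1, and 3 libraries correlated best with their own number. With the replicate block 2353 AA interactions were called (1013 above 0 and 1340 below), and 371 AA minus OA differences (155 and 216). Low genes, such as Slc7a11 and Srxn1 in untreated cells, rest on 4 to 46 counts per library, which limits their precision.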
